A study of Mus musculus with 20 samples.

Results

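The 10 genes described here act in the growth of new vessel sprouts: Apln, Aplnr, Pdgfb, Cxcr4, Esm1, Robo4, Unc5b, Robo1, Slit2 and Slit3. They were chosen by name from a list of tip cell and sprouting genes, with earlier results of these data known. All 10 were among the 18193 genes measured with a probe set of their own. They were covered by 17 of the 34945 probe sets that carried a single gene symbol, and the brightest probe set of each gene was used. Expression was measured on 20 Affymetrix arrays in bone marrow cells of C57/Bl6 mice aged 8 to 10 weeks that carried VE-cadherin, an adhesion protein of endothelial junctions. Each of 4 groups had 5 arrays: non-irradiated mice, and mice whose whole body had received 5 Gy of ionizing radiation, sampled 6 hours later, 24 hours later or on day 14. The labels name no transgene or other treatment. They call the 5 samples of a group biological replicates but do not say whether a sample was 1 animal or a pool, so p-values measure the spread between these samples, and the number of arrays limits their precision.

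New vessels grow from a leading tip cell that extends filopodia toward vascular endothelial growth factor, followed by stalk cells that Notch signalling holds back from the tip state. Tip cells of mouse retina express Apln, Esm1, Cxcr4, Unc5b and Pdgfb, and the Pdgfb they secrete recruits pericytes. Slit proteins are secreted ligands of Robo receptors, which guide axons and endothelial cells, while Robo4 and Unc5b are receptors of endothelial cells that bind each other and stabilise vessels. In bone marrow, Cxcr4 is the receptor that retains blood-forming cells, and it is expressed by many leukocytes besides endothelial cells.

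The promoters of 4 of these genes are shown because Apln and Robo4 had the largest increases of the 10 genes at 6 hours, and Slit2 and Slit3 rose together at 24 hours after a 6 hour change that did not pass the test on the deposited scale. Each runs from 250 bases before to 50 bases after the annotated start (RefSeq, GRCm38.p6), 5′ to 3′ on the gene's strand, with capitals marking a match to the ETS core AGGAAG on either strand. They lie at chrX:48034804-48035103 (minus strand, Apln), chr9:37401722-37402021 (plus strand, Robo4), chr5:47982905-47983204 (plus strand, Slit2) and chr11:35121206-35121505 (plus strand, Slit3).
Apln: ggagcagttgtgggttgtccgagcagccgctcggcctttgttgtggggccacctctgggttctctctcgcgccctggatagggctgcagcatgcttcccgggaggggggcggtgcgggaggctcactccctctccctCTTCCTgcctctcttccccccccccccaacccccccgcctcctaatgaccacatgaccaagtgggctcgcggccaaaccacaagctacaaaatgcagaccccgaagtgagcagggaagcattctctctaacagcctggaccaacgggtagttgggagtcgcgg
Robo4: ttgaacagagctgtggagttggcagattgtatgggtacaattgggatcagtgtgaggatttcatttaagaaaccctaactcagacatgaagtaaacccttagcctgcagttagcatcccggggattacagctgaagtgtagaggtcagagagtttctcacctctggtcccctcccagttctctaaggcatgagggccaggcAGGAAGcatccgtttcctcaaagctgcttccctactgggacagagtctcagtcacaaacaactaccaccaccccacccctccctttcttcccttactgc
Slit2: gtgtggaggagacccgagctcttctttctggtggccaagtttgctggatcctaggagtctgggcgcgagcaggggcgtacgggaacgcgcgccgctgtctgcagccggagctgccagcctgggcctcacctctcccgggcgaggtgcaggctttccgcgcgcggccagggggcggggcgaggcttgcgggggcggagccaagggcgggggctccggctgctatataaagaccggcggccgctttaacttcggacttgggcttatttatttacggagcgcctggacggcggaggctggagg
Slit3: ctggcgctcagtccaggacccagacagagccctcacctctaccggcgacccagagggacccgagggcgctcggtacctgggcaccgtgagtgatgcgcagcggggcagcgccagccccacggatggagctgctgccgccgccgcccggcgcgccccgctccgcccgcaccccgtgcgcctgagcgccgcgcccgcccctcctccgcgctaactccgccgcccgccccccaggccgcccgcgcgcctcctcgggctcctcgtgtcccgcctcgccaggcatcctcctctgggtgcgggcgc
ETS factors are transcription factors active in endothelial genes, and their core was present in 2 of the 8 promoters that matched a member, those of Apln, starting at position -113 from the start, and Robo4, at -49. The same 6 letters occurred in 35.4% of 32851 mouse promoters of this length. The hypoxia response core ACGTG was in 0 of the 8 (19.6% of all promoters) and the AP-1 site TGANTCA in 0 of the 8 (7.81%), each searched on both strands. The p53 half-site was found in 1 of the 8, that of Robo1, with 2 matches (8.36% of all promoters). A match of letters does not show that a factor binds there.

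Endothelial markers were present on all arrays, and their level differed between the groups. All 28 pan-endothelial markers lay above background, taken on each array as the 95th percentile of 27 bacterial control probe sets (17.5 to 51.5). Their summed signal was 31312 to 34597 on non-irradiated arrays, 86693 to 92798 at 6 hours, 42976 to 45828 at 24 hours and 17754 to 19828 on day 14. Their mean log2 signal was therefore above non-irradiated by 1.43 at 6 hours and 0.38 at 24 hours, and differed by -0.91 at day 14. Markers of other bone marrow cells were on the arrays too. All 15 granulocyte, 12 pan-leukocyte and 13 stromal and osteoblast markers were above background on every array. So were 7 of 11 erythroid, 10 of 15 monocyte and macrophage, 5 of 13 B lineage and 3 of 9 T and NK cell markers. Every gene of the marker lists was above background on at least 1 array. The erythroid list of 11 genes differed from non-irradiated by -3.21 at 6 hours, -5.00 at 24 hours and 0.41 at day 14, with summed signals of 59514 to 65972, 7709 to 11248, 2824 to 3378 and 66814 to 80196 on non-irradiated, 6 hour, 24 hour and day 14 arrays. The 10 megakaryocyte markers, of which Vwf was also in the endothelial list, shifted with the endothelial ones. The shifts were 1.53 at 6 hours, 0.47 at 24 hours and -0.58 at day 14, and 9 of these markers were above background on every array. Their summed signals were 12746 to 14098, 33703 to 42724, 18286 to 19356 and 10272 to 11571 on non-irradiated, 6 hour, 24 hour and day 14 arrays. The shifts of the other 7 marker lists lay between -1.52 (B lineage at 24 hours) and 1.66 (pericyte and smooth muscle at 24 hours). The log2 ratio of 3′ to 5′ Gapdh signal, a measure of RNA integrity and amplification, was 1.33 ± 0.040 on non-irradiated arrays, 1.58 ± 0.29 at 6 hours, 0.77 ± 0.056 at 24 hours and 0.89 ± 0.12 at day 14 (SD, n = 5 each), so a measure of RNA quality moved with the groups. Its part in the results was not tested apart from a fit with this value as a covariate. Because the value moved with the groups, that fit cannot fully separate it from them. A change that did not pass in that fit need not be smaller there. The arrays' hybridization controls, RNAs spiked in at fixed amounts, averaged 12.77 ± 0.084 (log2) on non-irradiated arrays, 12.84 ± 0.16 at 6 hours, 12.17 ± 0.16 at 24 hours and 12.14 ± 0.16 at day 14 (SD, n = 5 each). No batch is labelled, so a batch that set the 24 hour and day 14 arrays apart and the groups cannot be told apart in any comparison of those times with the others. Arrays of 1 group differed from each other by a median of 0.615 to 0.681 (absolute log2 difference over genes) at 6 hours, against 0.286 to 0.421 in the other groups.

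**Figure D1:**
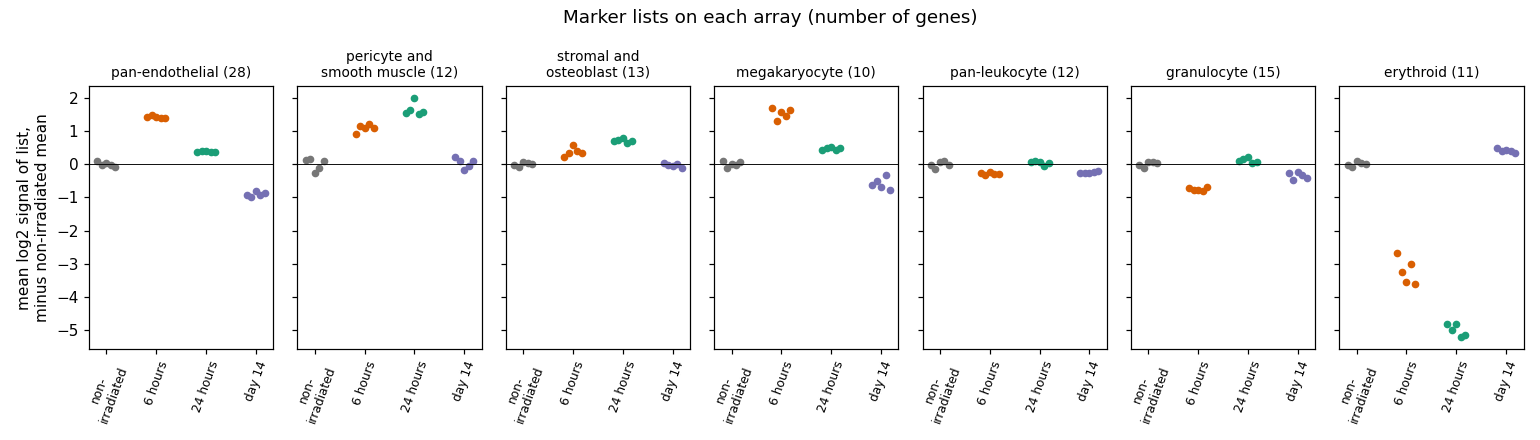
Mean log2 signal of 7 marker lists on each array, minus the mean of the non-irradiated arrays (vertical axis, log2), with groups along the horizontal axis and 1 point per array. Pan-endothelial markers lay 1.43 above non-irradiated at 6 hours and at -0.91 on day 14, while erythroid markers lay at -3.21 at 6 hours and -5.00 at 24 hours.

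In bulk RNA, fewer cells of a type and less RNA of a gene per cell cannot be told apart, so every level below is a level in the whole VE-cadherin+ preparation. Because the endothelial markers shifted, each change was also computed on an endothelial-centred scale, on which every array was moved so that the mean log2 signal of the 28 markers was equal, and on a median-centred scale, on which all arrays had the same median. As deposited, the median change of all 18193 genes against non-irradiated was -0.024 at 6 hours, -0.074 at 24 hours and -0.18 at day 14. It was 0.23, 0.31 and 0.72 on the median-centred scale and -1.45, -0.45 and 0.73 on the endothelial-centred scale, and these shifts are the background against which a change on either scale is read.

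As deposited, most of the 10 genes were higher in the first day after irradiation and 1 of them on day 14, whereas on either centred scale 7 were higher on day 14. At 6 hours 6 genes rose and 1 fell, at a limma adjusted p under 0.05 over all genes, where 12.9% of all genes were higher and 14.6% lower. The 6 were Apln, Aplnr, Pdgfb, Esm1, Robo4 and Unc5b, of which Pdgfb, Esm1 and Unc5b had changes below 0 on the endothelial-centred scale, and Cxcr4 fell. At 24 hours 8 rose and 1 fell (15.7% of all genes higher, 13.9% lower): Robo1, Slit2 and Slit3 had joined the genes that rose, and Pdgfb did not pass the test. On day 14 Apln rose and Pdgfb and Robo4 fell (9.44% higher, 13% lower), with Robo4 at 0.25 on both centred scales. Median-centred, 7 genes were higher and 1 lower on day 14, where 44.9% of all genes were higher and 2.64% lower. The median change of the 10 genes was 0.79 at 6 hours, 1.15 at 24 hours and -0.019 at day 14.

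Direct comparisons between times set the early samples against the later ones. Between 24 hours and 6 hours 4 of the genes were higher and 2 lower (13.7% and 10.1% of all genes). Between day 14 and 24 hours 1 was higher and 9 were lower (15.2% and 21.7%), and between day 14 and 6 hours 2 were higher and 6 lower (19.9% and 25.1%). In the F test over the 4 groups all 10 genes passed, as did 55.1% of all genes. The arrays of 6 genes at 6 hours lay wholly above the non-irradiated arrays and those of 1 wholly below, against 7.6% and 8.08% of all genes. At 24 hours these counts were 8 and 1 (15.1% and 13%), and on day 14 they were 0 and 2 (11.4% and 11.7%). Set against 6 hours, the 24 hour arrays lay wholly above for 3 genes and wholly below for 3 (8.02% and 6.57%), and the day 14 arrays for 2 and 6 (13.2% and 15.2%). Set against 24 hours, the day 14 arrays did so for 1 and 8 (15.7% and 20.7%). The scale affects the split of all genes: as deposited 2352 were higher and 2657 lower at 6 hours, 2850 and 2521 at 24 hours, and 1718 and 2370 on day 14, whereas on the median-centred scale these counts were 3536 and 1633, 4930 and 1153, and 8167 and 480.

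**Figure D2:**
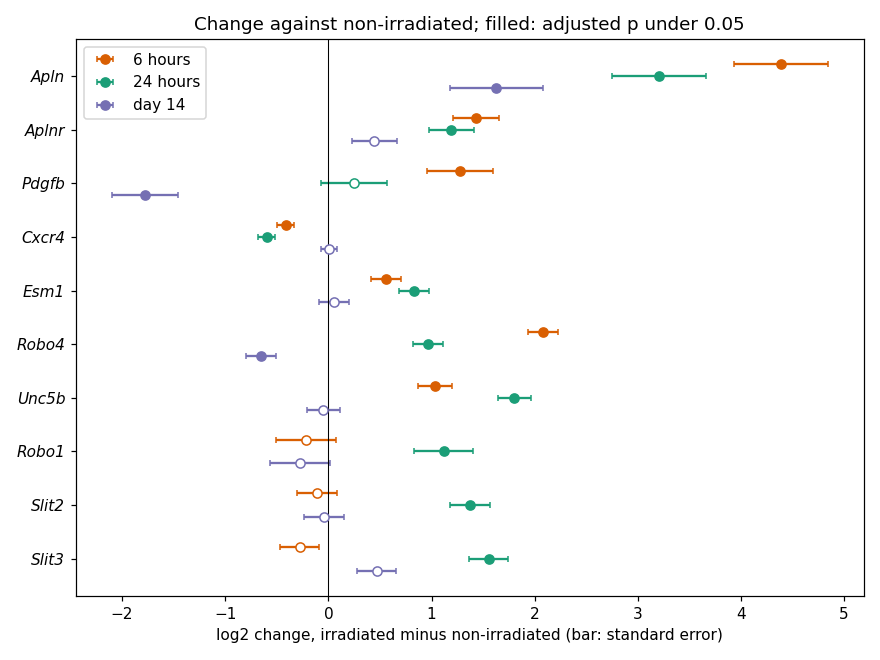
Log2 change of each gene against non-irradiated arrays at 6 hours, 24 hours and day 14 (horizontal axis), with bars for limma's standard error and filled points for an adjusted p under 0.05. Apln lay at 4.39, 3.21 and 1.63, Slit2 and Slit3 moved at 24 hours, and Robo4 and Pdgfb lay left of 0 on day 14, where Robo4 was at 0.25 on both centred scales.

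Apln encodes apelin, a secreted peptide of tip cells, and had the largest change of the 10 genes at each of the 3 times on the deposited scale except day 14, where that of Pdgfb was larger in size. On non-irradiated arrays its probe set (1451038_at) read 36.1, 6.34, 22.8, 104 and 37.0, of which 3 of 5 were above background. At 6 hours its signals were 582, 544, 1168, 574 and 484. They were 321, 377, 233, 239.8 and 253 at 24 hours and 93.0, 102, 99.9, 74.9 and 97.4 at day 14. All arrays at 6 and at 24 hours lay above all non-irradiated arrays, while the day 14 arrays overlapped them through a single non-irradiated array, replicate 4. The mean was 41.3 ± 37.4 on non-irradiated arrays, 671 ± 281 at 6 hours, 285 ± 62.2 at 24 hours and 93.5 ± 10.9 at day 14 (SD, n = 5 each). The log2 change against non-irradiated was 4.39 ± 0.45 (adjusted p = 3.35e-08) at 6 hours, 3.21 ± 0.45 (adjusted p = 3.61e-06) at 24 hours and 1.63 ± 0.45 (adjusted p = 0.0114) at day 14. With 16 instead of 1 added before taking logs, which damps low signals, the change at 6 hours was 3.73. Apln also remained above non-irradiated on the endothelial-centred scale, by 2.96, 2.83 and 2.54 at the 3 times. Against 6 hours, the 24 hour level differed by -1.18 ± 0.45 (adjusted p = 0.0611), and day 14 was lower as deposited, with -2.76 against 6 hours and -1.58 against 24 hours (adjusted p = 1.87e-05 and 0.00719). Neither passed on the endothelial-centred scale (-0.42 and -0.29, adjusted p = 0.384 and 0.602), nor did the second when median-centred (-1.06, adjusted p = 0.0826) or quantile normalized (-1.06, adjusted p = 0.0999), or the first with the Gapdh covariate (-1.61, adjusted p = 0.182).

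Aplnr, the G protein-coupled receptor of apelin, rose with its ligand at 6 and 24 hours but by less. Its signals (1438651_a_at) were 1216, 596, 723, 1433 and 1105 on non-irradiated arrays and 2006, 2689.9, 3242, 2855 and 2358 at 6 hours. At 24 hours they were 2623, 1697, 2387, 2140.2 and 2268, and on day 14 they were 1361, 776, 1779.8, 1306 and 1569. Every array at 6 and 24 hours was above every non-irradiated array, and the day 14 arrays were spread across the non-irradiated range and above it. The change was 1.43 ± 0.22 (adjusted p = 1.36e-05) at 6 hours and 1.19 ± 0.22 (adjusted p = 0.000122) at 24 hours, and 0.44 ± 0.22 (adjusted p = 0.15) at day 14. The 6 hour change of this probe set was 0.00025 on the endothelial-centred scale (adjusted p = 0.999), so no difference from the mean of the endothelial markers was found. That at 24 hours was 0.81 there (adjusted p = 0.0036). The day 14 change was 1.35 there and 1.34 median-centred (adjusted p = 6.02e-06 and 3.59e-05). As deposited, Aplnr was lower on day 14 than at 6 hours (log2 change -0.99 ± 0.22, adjusted p = 0.000662) and than at 24 hours (log2 change -0.75 ± 0.22, adjusted p = 0.00838), but on the endothelial-centred scale these changes were 1.35 and 0.54, and median-centred they were -0.34 and -0.23 and did not pass (adjusted p = 0.268 and 0.51). The first did not pass with the Gapdh covariate either (-0.60, adjusted p = 0.322).

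**Figure D3:**
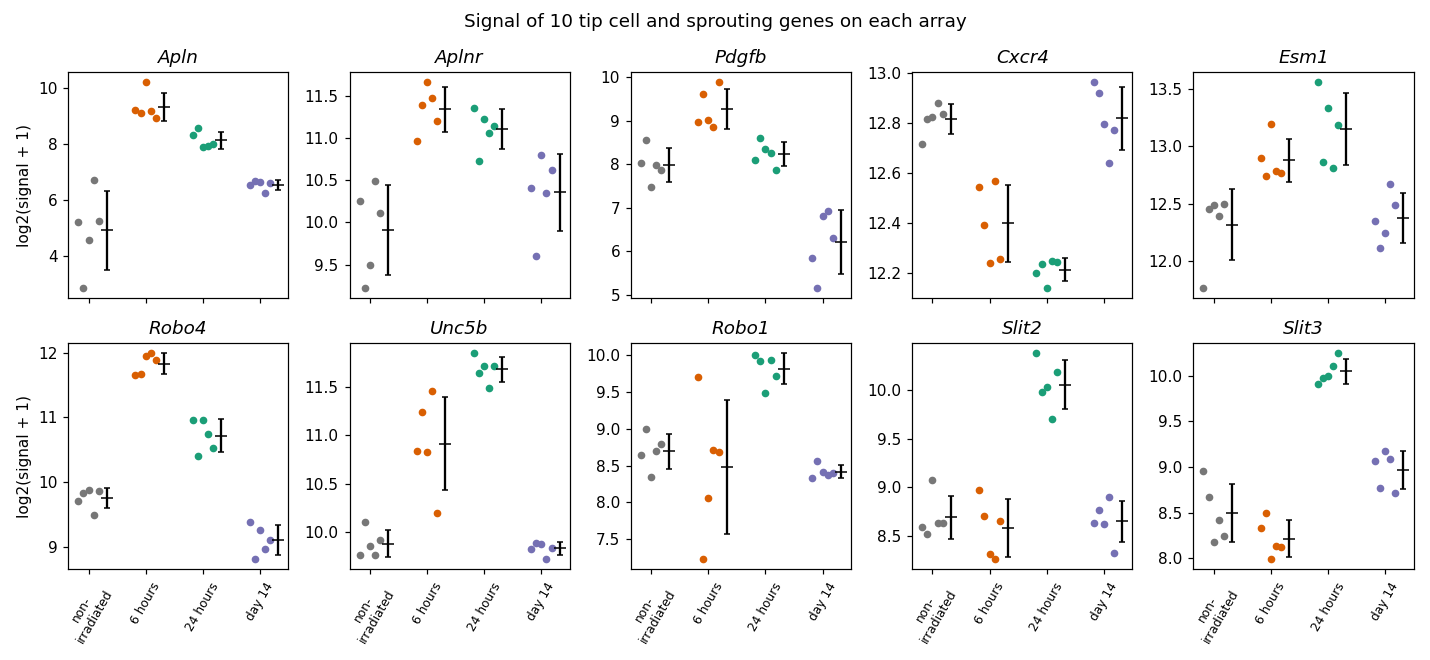
Log2(signal + 1) of the brightest probe set of each gene on every array (vertical axis, own range per gene), by group, with the mean and SD over 5 arrays beside the points. Apln, Aplnr and Robo4 were highest at 6 hours and Unc5b, Slit2 and Slit3 at 24 hours. Cxcr4 lay lower at 6 and 24 hours than on non-irradiated and day 14 arrays. On the endothelial-centred scale Aplnr, Cxcr4, Esm1 and Slit3 had their highest mean on day 14. For Slit3 the difference from 24 hours was 0.20 there and did not pass (adjusted p = 0.367). Of all genes, 52.5% were higher on day 14 than at 24 hours on that scale.

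Pdgfb, the growth factor that tip cells release to attract pericytes, rose at 6 hours, though not relative to the endothelial markers, and fell by day 14. Non-irradiated arrays read 261, 378, 177, 253 and 232 (1450413_at), and 6 hour arrays 496, 778, 518, 463 and 942. The signals were 271, 387, 327, 303 and 231 at 24 hours and 56.3, 34.6, 111, 121 and 77.8 at day 14. Thus the 6 hour arrays lay above all non-irradiated arrays, the 24 hour arrays overlapped them, and the day 14 arrays lay below them. Against non-irradiated the change was 1.28 ± 0.32 (adjusted p = 0.00318) at 6 hours, 0.24 ± 0.32 (adjusted p = 0.624) at 24 hours and -1.78 ± 0.32 (adjusted p = 0.000249) at day 14, and on the endothelial-centred scale it was -0.15, -0.13 and -0.87. The decrease on day 14 therefore exceeded the mean change of the 28 endothelial markers (adjusted p = 0.023), although the arrays of the groups overlapped on that scale. It did not exceed that of every marker: Flt1 was at -2.13 and Gpihbp1 at -1.80 on day 14 as deposited. The increase at 6 hours did not exceed the marker mean. Megakaryocytes also make Pdgfb, and their markers shifted at the same times by the values given above; their part in the Pdgfb values was not tested. Pdgfb was lower on day 14 than at 6 hours (log2 change -3.06 ± 0.32, adjusted p = 1.65e-08), the largest change between any pair of groups among the 10 genes on the deposited scale except those of Apln at 6 and 24 hours against non-irradiated. It was also lower than at 24 hours (log2 change -2.02 ± 0.32, adjusted p = 1.23e-05). Between 24 and 6 hours it fell by 1.03 (adjusted p = 0.0191). This change did not pass without replicate 5 of 6 hours (-0.88, adjusted p = 0.0553) or of 24 hours (-0.94, adjusted p = 0.053). Nor did it pass with array weights (-1.04, adjusted p = 0.0915) or with the Gapdh covariate, where it was larger in size (-1.81, adjusted p = 0.11). On the endothelial-centred scale it was 0.017.

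Cxcr4, the receptor of the chemokine Cxcl12, was the gene that fell in the first day, by an amount that was small but larger than the spread between arrays. Its signals (1448710_at) were 6732, 7224, 7258, 7540.1 and 7310.1 on non-irradiated arrays and 5968, 5373, 4836, 6077 and 4891 at 6 hours. They were 4704, 4831, 4516, 4872 and 4860.2 at 24 hours and 7990.2, 7747, 7115, 6394 and 6993 at day 14. All arrays of 6 and 24 hours lay below all non-irradiated and all day 14 arrays, and the non-irradiated and day 14 arrays overlapped. The change against non-irradiated was -0.42 ± 0.078 (adjusted p = 0.000187) at 6 hours, -0.60 ± 0.078 (adjusted p = 1.11e-06) at 24 hours and 0.0035 ± 0.078 (adjusted p = 0.98) at day 14. Median-centred, the changes at 6 and 24 hours were -0.17 and -0.22 and did not pass the test (adjusted p = 0.233 and 0.096). Relative to the endothelial markers they were -1.84 and -0.98. On day 14, where the median change of all genes was 0.72 median-centred and 0.73 endothelial-centred, Cxcr4 was at 0.90 and 0.91 (adjusted p = 4.19e-08 and 5.27e-09). Against 6 hours, the 24 hour level differed by -0.18 ± 0.078 (adjusted p = 0.0913). The pan-leukocyte and granulocyte lists, whose cells also express Cxcr4, differed from non-irradiated by -0.28 and -0.75 at 6 hours and by 0.045 and 0.12 at 24 hours. The B lineage list differed by -0.97 at 6 hours and -1.52 at 24 hours. The monocyte and macrophage list was at -0.37 and 0.36, and the T and NK cell list at 0.54 and -0.54. The part of these cells in the Cxcr4 values was not tested.

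Esm1, a secreted proteoglycan (endocan) used as a tip cell marker, was higher at 6 and 24 hours as deposited, but below the endothelial markers at 6 hours. Non-irradiated arrays had signals of 3486, 5602, 5742, 5386 and 5767 (1449280_at) and 6 hour arrays 7614, 6843, 9379.6, 7036 and 6976. At 24 hours the signals were 12042, 7426, 10338, 7188 and 9298, and on day 14 they were 5225, 4427, 4847, 6506 and 5762. Arrays of both early times were all above the non-irradiated arrays, which overlapped those of day 14. Esm1 rose by 0.56 ± 0.14 (adjusted p = 0.00448) at 6 hours, against -0.87 relative to the endothelial markers, and by 0.83 ± 0.14 (adjusted p = 6.18e-05) at 24 hours, against 0.45. The day 14 change was 0.054 ± 0.14 (adjusted p = 0.82) as deposited. It was 0.95 median-centred and 0.96 endothelial-centred (adjusted p = 2.33e-05 and 8.65e-06). Between 24 and 6 hours the difference was 0.27 ± 0.14 (adjusted p = 0.183). Day 14 was lower than 24 hours (log2 change -0.78 ± 0.14, adjusted p = 0.000108) and lower than 6 hours (log2 change -0.50 ± 0.14, adjusted p = 0.00629), yet above them by 0.51 and 1.83 on the endothelial-centred scale, and above 6 hours by 0.15 when median-centred. Median-centring left -0.26 against 24 hours (adjusted p = 0.243), and the Gapdh covariate left -0.41 against 6 hours (adjusted p = 0.317).

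Robo4, the endothelial Robo receptor, followed the endothelial markers in direction and exceeded their mean rise at 6 hours. It did not exceed that of every marker: Plvap was at 2.50 and Mmrn2 at 2.17 at 6 hours as deposited. Its signals (1426206_at) were 831, 912, 936, 721 and 927 on non-irradiated arrays and 3214, 3255, 3970.2, 4066 and 3808 at 6 hours. They were 1989, 1346, 1987, 1719.6 and 1466 at 24 hours and 666, 446, 609, 496 and 547 at day 14. No pair of these groups overlapped: 6 hours was highest, followed by 24 hours, non-irradiated and day 14. The mean was 865 ± 91.0 on non-irradiated arrays, 3663 ± 402 at 6 hours, 1702 ± 294 at 24 hours and 553 ± 87.3 at day 14 (SD, n = 5 each). Against non-irradiated Robo4 rose by 2.08 ± 0.14 (adjusted p = 2.76e-11) at 6 hours and 0.96 ± 0.14 (adjusted p = 8.39e-06) at 24 hours. On the endothelial-centred scale these were 0.65 and 0.59 (adjusted p = 0.000381 and 0.00287). On day 14 the change was -0.65 ± 0.14 (adjusted p = 0.00198) as deposited, 0.25 on the median-centred and 0.25 on the endothelial-centred scale, and it did not pass the test with the Gapdh 3′ minus 5′ value as a covariate (-0.55, adjusted p = 0.0764). Day 14 was lower than 24 hours (log2 change -1.62 ± 0.14, adjusted p = 1.58e-09) and than 6 hours (log2 change -2.73 ± 0.14, adjusted p = 6.12e-14), and 24 hours was lower than 6 hours (log2 change -1.12 ± 0.14, adjusted p = 2.13e-06). Relative to the endothelial markers the 24 hour and 6 hour levels differed by -0.065 (adjusted p = 0.733) and the day 14 and 24 hour levels by -0.33 (adjusted p = 0.0609). With the Gapdh covariate the difference between 24 and 6 hours did not pass (-0.93, adjusted p = 0.0739).

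Unc5b, a netrin receptor of endothelial cells that also binds Robo4, was higher at 24 hours than at 6 hours on its brightest probe set. Non-irradiated arrays read 866, 1102, 928, 869 and 966 (1435110_at), and those at 6 hours read 1834, 2417, 1812, 2808 and 1175. At 24 hours they read 3686, 3199, 3375, 2883 and 3362 and at day 14 909.5, 946, 942, 843 and 915. The 24 hour arrays were above all others, the 6 hour arrays were above non-irradiated with replicate 5 lowest, and day 14 overlapped non-irradiated. The change was 1.03 ± 0.16 (adjusted p = 1.97e-05) at 6 hours (-0.40 on the endothelial-centred scale), 1.80 ± 0.16 (adjusted p = 2.41e-09) at 24 hours (1.43 on that scale) and -0.050 ± 0.16 (adjusted p = 0.856) at day 14. Compared with 6 hours, Unc5b at 24 hours was higher by 0.77 ± 0.16 (adjusted p = 0.000882), which did not pass for the mean of its probe sets (0.44, adjusted p = 0.396). On the deposited scale Robo4 thus had its highest level at 6 hours and its binding partner Unc5b at 24 hours. Day 14 was lower than 24 hours (log2 change -1.85 ± 0.16, adjusted p = 1.14e-09) and lower than 6 hours (log2 change -1.08 ± 0.16, adjusted p = 5.44e-06). The change against 6 hours was 1.26 on the endothelial-centred scale and did not pass with the Gapdh covariate (-0.77, adjusted p = 0.0761).

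Robo1, a Slit receptor found on endothelial, neural and stromal cells, varied most between arrays at 6 hours. Its signals (1427231_at) were 399, 511, 324, 412 and 441 on non-irradiated arrays and 832, 149, 267, 418 and 409 at 6 hours. At 24 hours they were 1019, 969, 715, 978 and 840.0, and on day 14 320.4, 378, 341, 331 and 337. The 6 hour arrays reached from below all non-irradiated arrays (replicate 2) to above them (replicate 1), and the 24 hour arrays lay above the non-irradiated arrays. Robo1 rose by 1.12 ± 0.29 (adjusted p = 0.00405) at 24 hours, and was -0.22 ± 0.29 (adjusted p = 0.651) at 6 hours and -0.28 ± 0.29 (adjusted p = 0.522) at day 14. The 24 hour increase did not pass the test on the endothelial-centred scale (0.74, adjusted p = 0.0559), with the Gapdh covariate (0.79, adjusted p = 0.293) or for the mean of the gene's 3 probe sets (0.28, adjusted p = 0.578), of which 1 was not above background on any non-irradiated array. The 24 hour level was higher than at 6 hours by 1.33 ± 0.29 (adjusted p = 0.00119), but this did not pass for that mean (0.13, adjusted p = 0.826) or with the Gapdh covariate (0.85, adjusted p = 0.456). Day 14 was lower than 24 hours (log2 change -1.39 ± 0.29, adjusted p = 0.000363), with -0.11 on the endothelial-centred scale (adjusted p = 0.778). Day 14 against 6 hours was -0.060 ± 0.29 (adjusted p = 0.879), and 2.28 on the endothelial-centred scale.

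Slit2 and Slit3, secreted ligands of the Robo receptors, rose at 24 hours and did not pass the test at 6 hours, where both were below the endothelial markers, as given further on. Slit2 (1424659_at) read 385, 366, 538, 395 and 394 on non-irradiated arrays and 500.05, 417, 316, 305 and 400.4 at 6 hours. At 24 hours it read 1335, 1009, 1049.6, 832 and 1167, and at day 14 396, 434, 393, 475 and 319. The 24 hour arrays were above all 15 others, which overlapped. The change of Slit2 against non-irradiated was -0.11 ± 0.19 (adjusted p = 0.739) at 6 hours, 1.37 ± 0.19 (adjusted p = 3.39e-06) at 24 hours and -0.041 ± 0.19 (adjusted p = 0.902) at day 14. At 24 hours it was higher than at 6 hours by 1.48 ± 0.19 (adjusted p = 2.34e-06), and at day 14 lower than at 24 hours (log2 change -1.41 ± 0.19, adjusted p = 1.6e-06). The first did not pass with the Gapdh covariate (1.12, adjusted p = 0.103), and the second was -0.13 on the endothelial-centred scale (adjusted p = 0.606). Day 14 differed from 6 hours by 0.069 ± 0.19 (adjusted p = 0.791).

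Slit3 (1452296_at) read 495, 406, 289, 342 and 301 on non-irradiated arrays and 320.3, 361, 253, 279.9 and 279 at 6 hours. It read 959, 1008, 1018, 1106 and 1214 at 24 hours and 536, 435, 577, 544 and 418 at day 14. Again the 24 hour arrays stood above all others, and day 14 stood above 6 hours without overlap. The change of Slit3 against non-irradiated was -0.28 ± 0.19 (adjusted p = 0.31) at 6 hours, 1.55 ± 0.19 (adjusted p = 3.42e-07) at 24 hours and 0.47 ± 0.19 (adjusted p = 0.0737) at day 14. On day 14 Slit3 passed the test quantile normalized (0.77, adjusted p = 0.00899), median-centred (1.37, adjusted p = 1.99e-06) and endothelial-centred (1.38, adjusted p = 5.71e-07). Slit3 also passed there for the mean of probe sets, without the intensity trend and with array weights (adjusted p = 0.0314, 0.0427 and 0.0168). Apart from leaving out single arrays, Slit3 passed there in no other alternative. Compared with 6 hours it was higher by 1.83 ± 0.19 (adjusted p = 5.37e-08) at 24 hours and by 0.75 ± 0.19 (adjusted p = 0.00213) at day 14, where the Gapdh covariate left 0.65 (adjusted p = 0.211). Day 14 was lower than 24 hours (log2 change -1.08 ± 0.19, adjusted p = 4.31e-05), but at 0.20 on the endothelial-centred scale. The increases at 24 hours were 0.99 for Slit2 and 1.18 for Slit3 on that scale. Pericyte and smooth muscle markers, from cells that can also express Slit genes, were 1.66 above non-irradiated at 24 hours. Of these 12 markers, 8 were above background on every array and all on at least 1 array. Their summed signal was 27433 to 29270.3 at 24 hours against 22655 to 25444 at 6 hours and 9512 to 10508 on non-irradiated arrays. Stromal and osteoblast markers were 0.71 above non-irradiated at 24 hours, with a summed signal of 107529 to 132395 against 106009 to 115913 on non-irradiated arrays. The part of these cells in the Slit2 and Slit3 values was not tested.

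Relative to the endothelial markers, meaning the mean of all 28 and not each of them, the 10 genes divided differently at each time. At 6 hours Apln and Robo4 exceeded the markers, where 0.901% of all genes did, and 6 genes were below them (75% of all genes): Esm1, Cxcr4, Unc5b, Robo1, Slit2 and Slit3, at -0.87, -1.84, -0.40, -1.65, -1.54 and -1.71. At 24 hours 7 were above the markers (8.34% of all genes) and Cxcr4 was below (27.3%). The 7 were Apln, Aplnr, Esm1, Robo4, Unc5b, Slit2 and Slit3, with 1.43 for Unc5b and 0.45 for Esm1. On day 14 also 7 genes were above the markers, as were 45.1% of all genes, and Pdgfb was below, as were 2.51%. Robo4, at 0.25 (adjusted p = 0.172), and Robo1, at 0.63 (adjusted p = 0.0871), did not pass the test on day 14. Between 24 and 6 hours 7 genes were higher and 0 lower on this scale (58.3% and 0.792% of all genes). Between day 14 and 24 hours 3 were higher and 2 lower (52.5% and 1.69%), and between day 14 and 6 hours 7 were higher and 2 lower (80.8% and 0.731%).

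**Figure D4:**
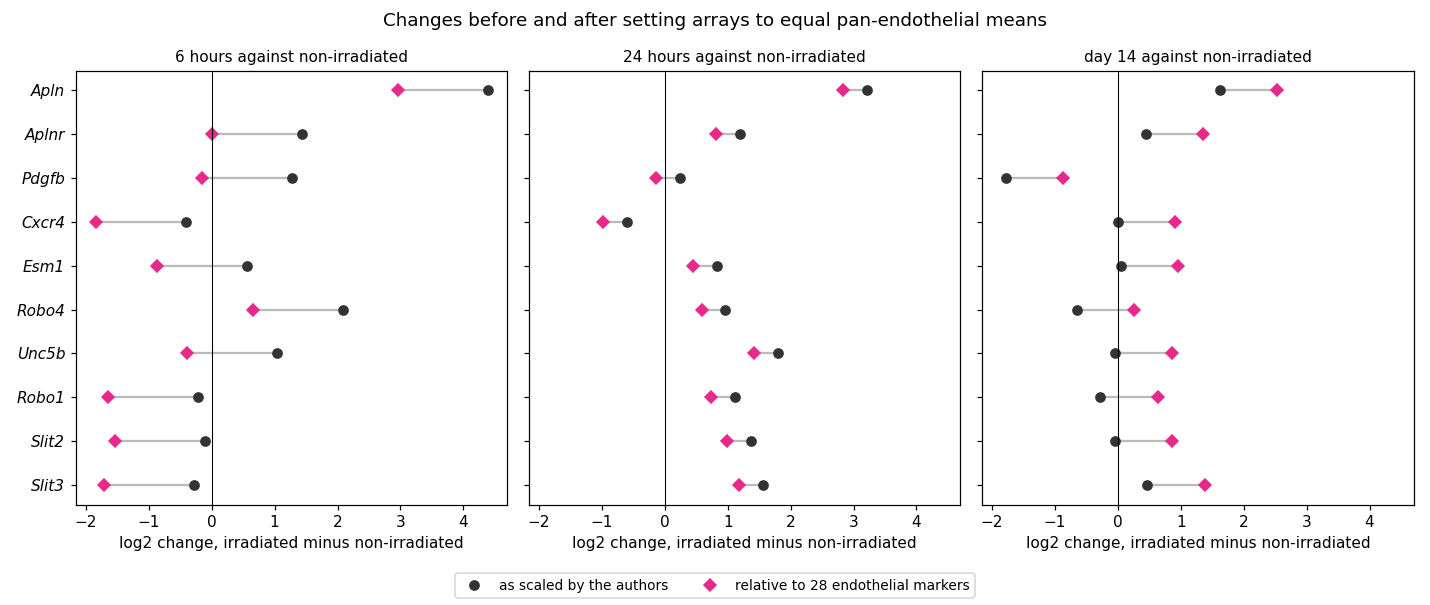
Log2 change against non-irradiated arrays at 6 hours, 24 hours and day 14 (horizontal axes), on the deposited scale (circles) and after every array was set to the same mean of 28 endothelial markers (diamonds), with a line joining both values of a gene. At 6 hours Apln (2.96) and Robo4 (0.65) stayed right of 0 on the endothelial-centred scale, while Esm1, Pdgfb and Unc5b crossed it.

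Partners of the members were read from 6 lists, which were chosen with earlier results of these data known. The background for each list count is the share of all genes. As deposited, 12.9% of all genes were higher and 14.6% lower at 6 hours. These shares were 15.7% and 13.9% at 24 hours and 9.44% and 13% on day 14. On the endothelial-centred scale they were 0.901% and 75%, 8.34% and 27.3%, and 45.1% and 2.51% at the 3 times. The Slit and Robo list, of 13 further genes, had 7 higher and 1 lower at 6 hours (median change 0.81), 5 higher and 1 lower at 24 hours (0.45) and 1 higher and 4 lower on day 14 (-0.087). On the endothelial-centred scale these counts were 1 and 8, 3 and 1, and 7 and 3. The split of the list, like that of all genes, thus depended on the scale at 6 hours and day 14. Srgap1, a GTPase activating protein that acts downstream of Robo, rose by 2.56 ± 0.47 (adjusted p = 0.000132) at 6 hours and 2.07 ± 0.47 (adjusted p = 0.00118) at 24 hours. Gpc1, a glypican that binds Slit, rose by 1.47 ± 0.13 (adjusted p = 3.04e-09) at 24 hours, as did Enah, an actin regulator, by 1.18 ± 0.19 (adjusted p = 1.49e-05). Arhgap39, another GTPase activating protein, fell at 6 hours (log2 change -1.17 ± 0.26, adjusted p = 0.00109). Robo2 was not above background on any day 14 array and was there at least 2.61-fold lower than on non-irradiated arrays (adjusted p = 0.000454). Slit1, the third Slit ligand, averaged 17.7 ± 17.5 on day 14, above background on 1 of 5 arrays, against 100.2 ± 18.3 on non-irradiated arrays (SD, n = 5 each, adjusted p = 0.00418). Robo3 averaged 65.5 ± 27.9 on day 14 against 204 ± 56.9 on non-irradiated arrays (adjusted p = 0.000173). Quantile normalized, neither the Slit1 nor the Robo3 change passed (adjusted p = 0.0704 and 0.0675).

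Of the 14 measured genes of the netrin, Unc5 and Flrt list, 4 were higher and 1 lower at 6 hours (median 0.33), 4 and 2 at 24 hours (0.52) and 1 and 2 on day 14 (-0.59). On the endothelial-centred scale the counts were 1 and 8, 4 and 2, and 6 and 0. Flrt3, a membrane protein that binds Unc5 receptors, rose by 3.69 ± 0.51 (adjusted p = 2.76e-06) at 6 hours, 1.73 ± 0.51 (adjusted p = 0.0103) at 24 hours and 1.47 ± 0.51 (adjusted p = 0.038) on day 14, and was at 2.26 at 6 hours on the endothelial-centred scale. Ntn4, a netrin of basement membranes, fell at 6 hours (log2 change -1.35 ± 0.24, adjusted p = 9.13e-05). Ntn1, the netrin that binds Unc5 receptors, had changes of 0.74, 0.67 and 0.46 (adjusted p = 0.164, 0.202 and 0.412). Neo1, the netrin receptor neogenin, rose by 1.41 ± 0.24 (adjusted p = 5.8e-05) at 24 hours. Flrt2, another Unc5 ligand, was at 0.90, 0.91 and 0.026 at the 3 times (adjusted p = 0.000148, 0.00011 and 0.93), and at -0.53 at 6 hours on the endothelial-centred scale. Unc5d was above background on no array, yet it is 1 of the 2 genes counted lower at 24 hours as deposited. That count therefore includes a gene without a detected signal.

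The apelin list held 11 measured genes, of which 5 were higher and 2 lower at 6 hours (median 0.23), 8 and 1 at 24 hours (1.00) and 2 and 2 on day 14 (0.18). On the endothelial-centred scale the counts were 0 and 8, 5 and 1, and 10 and 0. Ece1, the endothelin-converting enzyme, rose by 1.24 ± 0.086 (adjusted p = 2.72e-11) at 6 hours and 1.13 ± 0.086 (adjusted p = 1.05e-10) at 24 hours, and was at -0.19 at 6 hours on the endothelial-centred scale (adjusted p = 0.0666). Mme, the peptidase neprilysin that cleaves apelin, rose by 1.31 ± 0.16 (adjusted p = 2.78e-07) at 24 hours, and Gnai1, an inhibitory G protein subunit through which Aplnr signals, rose by 1.09 ± 0.11 (adjusted p = 1.38e-08). Arrb1, the receptor adaptor beta-arrestin, fell at 6 hours (log2 change -0.98 ± 0.13, adjusted p = 1.1e-06). Apela, the other ligand of Aplnr, was above background on no non-irradiated and no 6 hour array.

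Among the 8 genes of the Pdgf list, 4 were higher and 0 lower at 6 hours (median 0.81), 7 and 0 at 24 hours (0.99) and 1 and 0 on day 14 (-0.079), against 1 and 3, 5 and 0, and 6 and 0 on the endothelial-centred scale. Pdgfa rose by 1.52 ± 0.20 (adjusted p = 1.2e-06) at 6 hours, 2.35 ± 0.20 (adjusted p = 6.77e-10) at 24 hours and 0.84 ± 0.20 (adjusted p = 0.00321) on day 14. At 6 hours Pdgfa was at 0.087 on the endothelial-centred scale (adjusted p = 0.699). Pdgfc rose by 2.08 ± 0.29 (adjusted p = 3.72e-06) at 6 hours and 2.24 ± 0.29 (adjusted p = 1.04e-06) at 24 hours. Pdgfrb, the receptor of Pdgfb on pericytes, rose by 0.58 ± 0.074 (adjusted p = 1.05e-06) at 6 hours, where it was at -0.85 relative to the endothelial markers, and by 0.77 ± 0.074 (adjusted p = 8.51e-09) at 24 hours, and was at 0.051 on day 14 (adjusted p = 0.658). Whether the courses of these genes differ from that of Pdgfb was not tested.

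In the Cxcl12 list 5 of 8 genes were higher and 0 lower at 6 hours (median 0.31), 3 and 2 at 24 hours (0.18) and 1 and 3 on day 14 (-0.083), against 0 and 5, 1 and 3, and 6 and 1 on the endothelial-centred scale. Ackr3, the receptor that scavenges Cxcl12, rose by 1.67 ± 0.16 (adjusted p = 1.27e-08) at 6 hours and 0.77 ± 0.16 (adjusted p = 0.000588) at 24 hours, and was -0.71 ± 0.16 (adjusted p = 0.00267) on day 14. The early changes were 0.24 and 0.39 on the endothelial-centred scale (adjusted p = 0.193 and 0.075), and that of day 14 was 0.19 on the endothelial-centred and 0.19 on the median-centred scale. Cxcl12 itself was at 0.11 at 6 hours, -0.28 at 24 hours and -0.39 on day 14 (adjusted p = 0.381, 0.0183 and 0.00229). Its direction depended on the scale: the median-centred changes at 24 hours and day 14 were 0.11 and 0.51, and quantile normalization gave 0.19 and -0.0070. Rgs16, an inhibitor of G protein signalling, rose by 1.98 ± 0.26 (adjusted p = 1.11e-06) at 6 hours, where it was at 0.56 on the endothelial-centred scale (adjusted p = 0.0546). Rgs1, of the same family, fell on day 14 (log2 change -1.54 ± 0.16, adjusted p = 1.58e-07), and Cxcl14, a chemokine reported to bind Cxcr4, rose by 1.48 ± 0.092 (adjusted p = 2.81e-12) at 24 hours.

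The tip and stalk cell list of 30 genes had 21 higher and 1 lower at 6 hours (median 0.91), 16 and 0 at 24 hours (0.82) and 4 and 9 on day 14 (-0.23), whereas the endothelial-centred counts were 4 and 17, 13 and 2, and 18 and 3. Kdr, Cd34, Plvap and Flt1 of this list were also among the endothelial markers used for centring. Kcne3, a potassium channel subunit of tip cells, rose by 3.32 ± 0.53 (adjusted p = 2.07e-05) at 6 hours, and Plvap, the diaphragm protein of endothelial fenestrae, by 2.50 ± 0.17 (adjusted p = 2.66e-11). Lfng, which modifies Notch receptors, rose by 2.06 ± 0.17 (adjusted p = 3.62e-10) at 24 hours, and Fscn1, the filopodial protein fascin, by 1.73 ± 0.12 (adjusted p = 1.07e-11). On day 14 Flt1, the decoy receptor of vascular endothelial growth factor, fell (log2 change -2.13 ± 0.11, adjusted p = 4.16e-13), as did Notch4 (log2 change -1.81 ± 0.27, adjusted p = 2.29e-05) and Plaur, the urokinase receptor (log2 change -1.67 ± 0.13, adjusted p = 8.74e-10). Hey2, a Notch target, fell at 6 hours (log2 change -2.02 ± 0.56, adjusted p = 0.00736). Dll4, the Notch ligand of tip cells, was at 1.09 ± 0.39 (adjusted p = 0.038) at 6 hours, with -0.34 on the endothelial-centred scale, 0.14 ± 0.39 (adjusted p = 0.832) at 24 hours and -1.35 ± 0.39 (adjusted p = 0.0146) on day 14. The day 14 change was -0.34 quantile normalized, -0.45 median-centred and -0.44 endothelial-centred, and passed on none of these scales (adjusted p = 0.639, 0.407 and 0.396). Kdr, the main receptor of vascular endothelial growth factor, was at 0.29, -0.029 and -1.08 at the 3 times (adjusted p = 0.202, 0.918 and 2.9e-05), and its day 14 change was -0.18 median-centred and -0.18 endothelial-centred (adjusted p = 0.375 and 0.435). Vegfa, its ligand, was at 0.44, 1.16 and 0.42 (adjusted p = 0.0623, 7.38e-06 and 0.0825).

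For 5 of the 10 genes the array had further probe sets, and their changes were not alike in every case. For Aplnr the dimmer probe set (1423037_at) gave 0.82 ± 0.32, 1.32 ± 0.32 and 0.47 ± 0.32 at 6 hours, 24 hours and day 14, and the 6 hour change did not pass the test there (adjusted p = 0.0634 over all probe sets). The additional probe set of Pdgfb (1450414_at) gave 1.29 ± 0.34, 0.24 ± 0.34 and -1.45 ± 0.34, the same directions as the brightest. That of Unc5b (1453269_at), above background on 2 of 5 non-irradiated arrays, gave 1.69 ± 0.67, 1.80 ± 0.67 and 0.70 ± 0.67. Robo1 and Slit2 differed most between probe sets. A dimmer Robo1 probe set (1457407_at) was at -0.44 ± 0.37 at 24 hours, where the brightest rose, and fell on day 14, at -2.76 ± 0.37 (adjusted p = 5.8e-06). The third Robo1 probe set (1445549_at) was above background on 1 of the 20 arrays, so no change is given for it. A dimmer Slit2 probe set (1458140_at), above background on 3 of 5 arrays at 6 hours and on day 14, fell at 6 hours and day 14, at -1.86 ± 0.43 and -2.71 ± 0.43 (adjusted p = 0.00173 and 4.52e-05) and was at -0.025 ± 0.43 at 24 hours, and the other (1451430_at) was at 0.46 ± 0.45 at 24 hours (adjusted p = 0.497). The 24 hour increases of Robo1 and Slit2 therefore rest on their brightest probe sets.

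**Figure D5:**
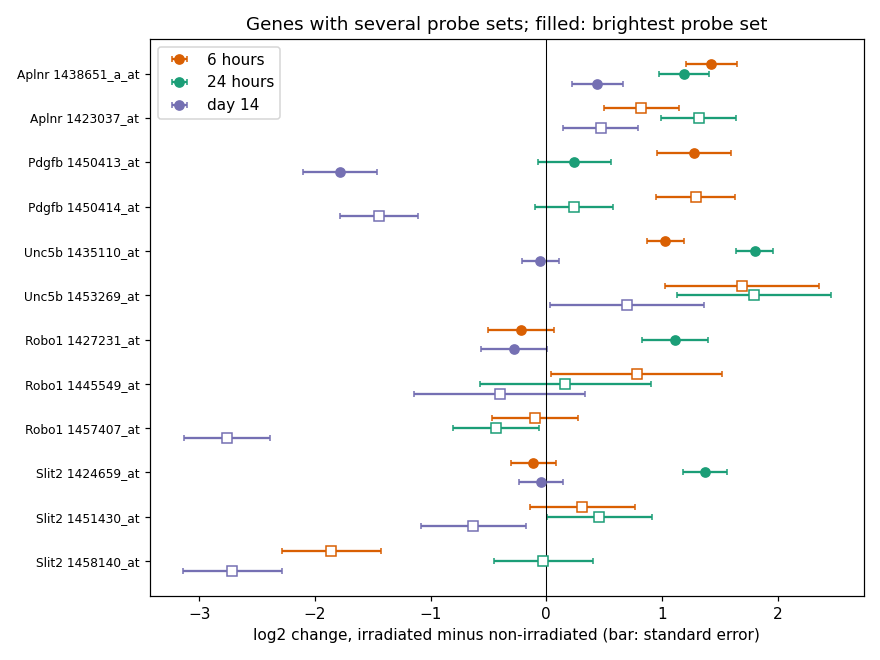
Log2 change against non-irradiated arrays (horizontal axis, with limma's standard error) for every single-symbol probe set of the 5 genes that had several, filled for the brightest; the Robo1 probe set 1445549_at was above background on 1 array only. Both Pdgfb probe sets lay at 1.28 and 1.29 at 6 hours, whereas the 24 hour change of Slit2 was 1.37 for the brightest probe set and 0.46 and -0.025 for the others.

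The genes whose pattern was most like each member's were found by the root mean square difference of log2 signals over the 20 arrays, each gene centred on its non-irradiated mean. This is a description, in which all genes share the arrays and their scaling. The nearest to Apln were Dglucy, at a difference of 0.92, Phlda3 and Saa3, of which Saa3, an acute phase protein, was 4.32 above non-irradiated at 6 hours. Nearest to Aplnr were Lum (0.34), Mcrip1 and Cd99, and to Pdgfb Dock6 (0.45), Flt1 and Gpihbp1. Cxcr4 was most like Drosha (0.13), Eif3i and Srsf3, genes of RNA processing and translation. Esm1 was most like Marcks (0.21), Pdgfrb and Vcam1. For Robo4 the nearest were Mmrn2 (0.27), an endothelial matrix protein, Tm4sf1 and Pdlim7, and for Unc5b they were Pmepa1 (0.24), Ddr1 and Cd9. Robo1 stood nearest to Itih5 (0.33), Atp8b2 and Slc52a3. Slit2 stood nearest to Bmp5 (0.26), Irs1 and Ncam1, and Slit3 to Pde1a (0.24), Igf1 and Islr, whose 24 hour changes were 1.57, 1.72 and 1.69.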

How the data were processed

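The authors deposited linear intensities for 45101 probe sets on 20 arrays. Their values show that every array had been scaled to a common mean, with 2% of the probe sets trimmed at both ends. Per the submitters' processing notes, the software was Transcriptome Analysis Console and Affymetrix Expression Console (no versions); the summarization method is not given in the sources used here. RNA was extracted with the RNeasy micro kit and amplified with NuGEN Ovation V2, per the labels' protocols. In the platform annotation 34945 probe sets carried 1 gene symbol, 932 several and 64 were controls; the others were unnamed here. Each gene was represented by its brightest single-symbol probe set (18193 genes, no filter), as log2(signal + 1).

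Groups were taken from the sample titles. All 4 groups were fitted together with limma 3.58.1 in R 4.3.3 (lmFit, eBayes with an intensity trend). A gene passed the test where its two-sided p, adjusted by Benjamini and Hochberg's method across all genes, was under 0.05; changes carry limma's standard error. The fit was tested on simulated data. Members and lists were chosen with earlier results of these data known. From each pathway list and time against non-irradiated, up to 3 called genes with the largest change could be named, and fixed direct partners always; the 3 genes most like each member were named. A gene not above background on any array of a group was given a bound only: the other group's mean over the higher of background and signal. Alternatives were quantile, median and endothelial centring, 16 added, dim genes left out, and probe sets ending in _x_at, _s_at or _a_at left out. Others were the mean of probe sets, no trend, array weights, only the 2 groups compared, a replicate block, a Gapdh covariate and each array left out. Figures used Python 3.11.15 and matplotlib 3.10.9.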

Additional observations from a re-analysis of the deposited data

Results flagged for a closer look

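In 3 of the 40 gene and group combinations with 5 arrays each, 1 array lay far from the other 4 by Dixon's test at its 95% critical value, which chance flags in about 1 of 20 groups. Apln on 6 hour replicate 3 had a signal of 1168, with 582 on the next array, and that array's log2 ratio of 3′ to 5′ Gapdh was 2.03, against 1.26 to 1.64 on the other 6 hour arrays. Esm1 on non-irradiated replicate 1 had 3486, with 5386 on the nearest. Slit2 on non-irradiated replicate 3 had 538, with 395 on the nearest. Without that array the 6 hour change of Apln was 4.17, that of Esm1 0.42 and the 24 hour change of Slit2 1.47, and all 3 passed the test.

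For 2 genes, changes against non-irradiated passed the test in opposite directions at 2 times, and the direct comparison of those times passed it too. Robo4 differed by -1.62 between day 14 and 24 hours and by -2.73 between day 14 and 6 hours. Pdgfb differed by -3.06 between day 14 and 6 hours. On the endothelial-centred scale these differences were -0.33, -0.40 and -0.72 (adjusted p = 0.0609, 0.017 and 0.0373).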

How the results depend on the processing

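Besides leaving out single arrays, 12 alternatives gave 720 changes of the 10 genes, of which 642 kept their side of the threshold without a called change of sign, 32 no longer passed, 25 newly passed and 21 reversed. Among the 642 were 22 that changed sign without passing either way. Leaving out each array in turn gave 1200 changes: 1192 kept their side of the threshold (11 of them changed sign without passing), 2 no longer passed, 6 newly passed and 0 reversed. The scale of the arrays had the widest effect. Counts of genes that passed on day 14 against non-irradiated were 8647 median-centred, 8652 endothelial-centred, 6245 with array weights and 6165 with only the 2 groups compared, against 4088 as reported, and members were 8, 8 and, for the mean of probe sets, 6, against 3. Endothelial centring gave 13807 genes at 6 hours, 10746 between 24 and 6 hours and 14830 between day 14 and 6 hours, and 5 members between day 14 and 24 hours. The Gapdh covariate gave 3470 genes at 24 hours, 1453 between 24 and 6 hours and 4402 between day 14 and 6 hours, with 2 and 3 members in those last comparisons.

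Changes that reversed when median-centred were, on day 14 against non-irradiated, Unc5b (0.85), Robo4 (0.25) and Slit2 (0.86), and against 6 hours Esm1 (0.15). Endothelial-centred, they were Esm1 (-0.87), Unc5b (-0.40) and Pdgfb (-0.15) at 6 hours, and Unc5b (0.86), Robo4 (0.25) and Slit2 (0.87) on day 14. Between 24 and 6 hours they were Aplnr (0.81), Cxcr4 (0.87) and Pdgfb (0.017). Between day 14 and 24 hours they were Aplnr (0.54), Esm1 (0.51) and Slit3 (0.20), and between day 14 and 6 hours Aplnr (1.35), Esm1 (1.83), Unc5b (1.26) and Robo1 (2.28). Slit2 between day 14 and 6 hours was -0.58 for the mean of probe sets. These centrings shift all genes of an array alike; the cause of the others was not tested. On day 14, Aplnr passed without day 14 replicate 2 (0.63, adjusted p = 0.0365) and Slit3 without non-irradiated replicate 1 (0.58, adjusted p = 0.0337). Between 24 and 6 hours, Cxcr4 passed without replicate 3 or 5 of 6 hours and Apln without non-irradiated replicate 2 or 4. Replicate numbers did not pair the samples: deviations of same-numbered arrays correlated at -0.064 to 0.044 (30 pairs). With a replicate block 7, 9 and 3 members passed at 6 hours, 24 hours and day 14, and 4951, 5285 and 3903 genes. Low signals limit Apln most, for which 3 of 5 non-irradiated arrays were above background. The pathway list counts on other scales were added after seeing the data.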
